A study of Homo sapiens with 27 samples.

Results

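DNA replication and mitosis genes, 39 of a set of 40, were followed in 27 RNA-seq libraries from 3 human tumour lines made to overexpress MAML3, a Mastermind-like coactivator known from Notch signalling. The set was taken by symbol. Of the 23230 gene symbols in the table, 39 matched a member, and CCNA2 is not analysed here. The genes were sorted by role into 9 for licensing and the replicative helicase, 4 for the fork and nucleotide supply, 7 for G1 and S entry, 8 for G2 and mitotic entry, 4 for the spindle checkpoint and mitotic exit, and 7 for the spindle, centromere and chromosomes.

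The lines were SK-N-SH, established from a neuroblastoma, and 2 from pancreatic neuroendocrine tumours, BON-1 and QGP-1. Each line was transfected by lipid carrier with one of 3 plasmids, and RNA was taken on day 3. The vector group received pCMV6-AC with no MAML3 sequence. The FL group received the full-length MAML3 cDNA, and the dEx1 group received a MAML3 cDNA lacking exon 1, both with a V5 tag at the C terminus. Each of the 9 groups had 3 libraries, described as biological replicates. All groups were transfected and none is untreated. Transfection was transient, so each library pools cells that took up plasmid with cells that did not.

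Cells copy their DNA in S phase and divide it in mitosis, and the genes for each step are switched on in waves. In G1, cyclin D kinases phosphorylate RB proteins, which frees E2F factors to activate genes for origin licensing, nucleotide synthesis and the replication fork. Later, the MuvB complex with B-MYB and FOXM1 activates the genes of G2 and mitosis, many through a short promoter element called CHR. In cells that leave the cycle both waves are repressed. Fewer cycling cells and less RNA per cycling cell cannot be told apart in such libraries.

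The promoters of the members carried the letters of both waves. RefSeq promoter windows (GRCh38.p14), from 250 bases before to 50 after a start site, matched 29 of the 39 genes. The E2F letters searched were TTTCCCGC, TTTGGCGC, TTTCGCGC and TTTGCCGC. The CHR letters were TTTGAA and TTCGAA. Both strands were read, and no E2F match overlapped a CHR match in a member. An E2F match was present in 9 of 11 licensing, fork and nucleotide genes and in 1 of 14 genes of G2, mitosis, checkpoint and spindle, against 3.99% of 27305 genes with a window. A CHR match was present in 2 of those 11 and in 11 of those 14, against 19.5% of all genes. CCAAT on either strand was present in 23 of 29 members, against 39.7% of all genes. These are matches of letters, not shown binding sites. The last 100 bases before the start are shown for 4 genes with each element, as examples of the 2 classes whose members are compared in QGP-1. Capitals mark the E2F letters (as their reverse complement GCGGGAAA) in the first 4 and the CHR letters in the last 4. The positions are chr20:5126623-5126722 (minus strand) for PCNA, chr18:657553-657652 (plus) for TYMS, chr16:88803689-88803788 (plus) for CDT1, chr16:85688955-85689054 (minus) for GINS2, chr1:43358881-43358980 (plus) for CDC20, chr16:23678789-23678888 (plus) for PLK1, chr15:59105046-59105145 (plus) for CCNB2 and chr15:40160969-40161068 (plus) for BUB1B.
PCNA: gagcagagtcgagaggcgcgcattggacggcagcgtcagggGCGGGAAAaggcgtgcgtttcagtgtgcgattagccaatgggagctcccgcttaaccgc
TYMS: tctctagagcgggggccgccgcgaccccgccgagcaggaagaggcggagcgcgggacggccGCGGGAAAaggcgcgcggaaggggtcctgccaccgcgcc
CDT1: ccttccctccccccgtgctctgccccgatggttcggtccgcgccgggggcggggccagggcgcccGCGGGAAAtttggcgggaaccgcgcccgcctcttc
GINS2: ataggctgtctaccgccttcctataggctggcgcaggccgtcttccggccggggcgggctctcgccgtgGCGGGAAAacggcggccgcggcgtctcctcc
CDC20: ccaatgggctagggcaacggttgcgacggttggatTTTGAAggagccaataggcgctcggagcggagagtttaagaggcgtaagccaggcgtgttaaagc
PLK1: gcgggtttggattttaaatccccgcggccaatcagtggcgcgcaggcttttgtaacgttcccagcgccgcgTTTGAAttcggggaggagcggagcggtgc
CCNB2: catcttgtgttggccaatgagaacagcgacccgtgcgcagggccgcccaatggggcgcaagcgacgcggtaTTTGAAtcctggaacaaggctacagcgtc
BUB1B: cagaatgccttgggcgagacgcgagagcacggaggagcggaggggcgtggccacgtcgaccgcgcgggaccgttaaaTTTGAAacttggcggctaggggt

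Library totals ran from 73026244 to 120254457 estimated counts, and levels below are CPM (counts scaled to a common library size, TMM) computed over all 27 libraries. MAML3 told vector from construct as labelled in every library, at 16.9 to 93.7 CPM with vector and at 2231 to 15840 CPM with a construct. Counts per gene do not tell FL from dEx1, and MAML3 was not called between them. Its log2 difference for dEx1 against FL was -0.35 in SK-N-SH, -0.14 in BON-1 and -0.35 in QGP-1. Those 2 labels were thus not checked. Of the line markers, CHGA was at 11740 CPM or more in BON-1 and 501.6 CPM or more in QGP-1, while SK-N-SH had TH at 0.0517 CPM or less. One library stood apart in the genes described here, the BON-1 vector replicate 1. Its total was the lowest of the 27 and its share of counts in ribosomal protein genes, 6.325%, the highest. The counts and medians of the BON-1 comparisons are therefore given with and without it.

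In SK-N-SH, the D cyclin CCND1 was lower with dEx1 than with vector in edgeR's test. No other member was called against vector with either construct in that test, which had no replicate block. CCND1 (hg19 chromosome 11, 69455924 to 69469242, 5 exons), the cyclin that partners CDK4 and CDK6 in G1, was at 2503, 2547 and 2122 CPM in the vector libraries, 1744, 1640 and 2192 CPM with FL, and 1491, 1511 and 1549 CPM with dEx1. All 3 dEx1 libraries were below all 3 vector libraries and all 3 FL libraries, while FL and vector overlapped. The log2 fold change of CCND1 was -0.65 (SE 0.13, 95% interval -0.93 to -0.37, edgeR adjusted p = 0.0262) for dEx1 against vector, -0.36 (SE 0.13, adjusted p = 0.201) for FL against vector and -0.29 (SE 0.13, adjusted p = 0.137) for dEx1 against FL. The call for CCND1 was lost in 6 of 17 alternatives. These were the fit of all 27 libraries and the fits without vector replicate 1 or 2 or without any 1 dEx1 library, with an adjusted p of up to 0.113 and a fold change between -0.74 and -0.61. In the hg19 annotation 10.4% of the exonic bases of CCND1 overlap exons of LTO1 on the other strand.

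CENPF, which codes for a large kinetochore protein, was higher with dEx1 than with FL in SK-N-SH. Its levels were 215, 223 and 308 CPM with vector, 244, 184 and 230 CPM with FL, and 316, 283 and 366 CPM with dEx1. The dEx1 libraries lay above all 3 FL libraries and overlapped the vector libraries. The log2 difference of CENPF was 0.56 (SE 0.17, edgeR adjusted p = 0.0493) against FL and 0.38 against vector (unadjusted p = 0.0588). This call was lost in 10 of 17 alternatives: the fit without a filter on low counts, the fit of all 27 libraries and the removal of any 1 SK-N-SH library other than vector replicate 3, with an adjusted p of up to 0.504.

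The calls in SK-N-SH were set beside those over all genes. Members called numbered 0 of 39 for FL against vector, 1 of 39 for dEx1 against vector and 1 of 39 for dEx1 against FL in SK-N-SH, where 1.74%, 4.47% and 22.0% of all 14674 genes tested were called. In the direction of the called member the shares were 3.64% lower for dEx1 against vector and 10.5% higher for dEx1 against FL. For FL against vector, 1 member had an unadjusted p under 0.05, and DESeq2 called 0 members there (7.96% of all genes). For dEx1 against FL, DESeq2 called 3 members (31.0% of all genes). With limma's voom and quality weights, 1 member was called for FL and 17 for dEx1 against vector (15.2% and 36.2% of all genes). With a replicate block, edgeR called more members in each of the 3 comparisons, as counted in the last section. It then called 5.30%, 15.1% and 32.8% of all genes for FL against vector, dEx1 against vector and dEx1 against FL. The median log2 difference over the members was -0.01 for FL, 0.25 for dEx1 and 0.30 for dEx1 against FL, beside medians over all genes of -0.01, 0.01 and 0.00. With dEx1, 33 of 39 members had a positive fold change, among them all 19 genes of G2, checkpoint and spindle, and 51.2% of all genes did. These medians moved with single libraries. The median ran from -0.31 (without FL replicate 3) to 0.33 (without vector replicate 3) for FL, from 0.03 (without dEx1 replicate 3) to 0.52 (without vector replicate 3) for dEx1, and from 0.06 (without dEx1 replicate 3) to 0.51 (without FL replicate 3) for dEx1 against FL. It was also 0.12 and 0.09 for dEx1 without vector replicate 1 or 2, and 0.11 for dEx1 against FL without FL replicate 2. Between libraries of the same number, the median over 38 members was 0.12, -0.13 and -0.06 for FL minus vector, 0.45, 0.32 and 0.08 for dEx1 minus vector, and 0.34, 0.44 and 0.16 for dEx1 minus FL in replicates 1, 2 and 3.

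The other members of the mitotic group in SK-N-SH were spread widely between libraries. AURKA, the centrosome kinase, was at 47.1, 38.5 and 43.7 CPM with vector and at 59.9, 51.2 and 67.4 CPM with dEx1. The groups for AURKA did not overlap, but the log2 difference of 0.47 (SE 0.18) did not pass (adjusted p = 0.161). Groups not overlapping were found for 1 of 39 members in each direction at dEx1 against vector, where 12.4% of all genes were higher and 14.2% lower in that way. For dEx1 against FL they were found for CENPF above and for CCND1 and CCND2 below, against 21.5% and 21.9% of all genes. No member stood apart in this way for FL against vector, where 11.5% of all genes were higher and 9.94% lower.
BIRC5, which codes for survivin, part of the chromosomal passenger complex, was at 56.7, 52.1 and 104 CPM with vector, 49.4, 44.6 and 75.9 CPM with FL, and 102, 71.9 and 140 CPM with dEx1. Its groups overlapped in both comparisons with dEx1, and the log2 difference of BIRC5 was 0.57 (SE 0.34, adjusted p = 0.362) against vector and 0.89 (SE 0.34, adjusted p = 0.0949) against FL. These fits had no replicate block. Within each replicate number BIRC5 was higher with dEx1 than with vector and with FL. Of its variance of log2 CPM, 50.9% lay between replicate numbers and 46.3% between constructs. For FL against vector, the members with the smallest p apart from CCND1 were MCM3 (0.36, SE 0.22, adjusted p = 0.489) above and CENPF (-0.18, SE 0.17, adjusted p = 0.689) below.

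In each SK-N-SH group the third library was the highest for most members. Replicate 3 was highest for 35 of 38 members with vector, 35 of 38 with FL and 37 of 38 with dEx1, leaving out CCND2. TOP2A, the topoisomerase that untangles chromosomes, was at 115, 102 and 226 CPM with vector, 131, 99.2 and 181 CPM with FL, and 224, 151 and 277 CPM with dEx1. CDK1, the kinase of mitotic entry, was at 24.5, 17.0 and 60.7 CPM with vector, 32.2, 25.3 and 52.5 CPM with FL, and 42.7, 27.6 and 69.0 CPM with dEx1. MKI67, the gene of the proliferation antigen Ki-67, departed from this in FL, with 124, 123 and 193 CPM with vector, 216, 105 and 192 CPM with FL, and 174, 157 and 223 CPM with dEx1. Its highest FL library was replicate 1.
Replication genes had the same order of libraries. MCM2, a subunit of the replicative helicase, was at 111, 101 and 185 CPM with vector, 123, 107 and 209 CPM with FL, and 136, 117 and 180 CPM with dEx1. MCM5, of the same helicase, was at 107, 97.6 and 171 CPM with vector, 123, 110 and 199 CPM with FL, and 112, 101 and 151 CPM with dEx1. RRM2, the regulated subunit of ribonucleotide reductase, was at 112, 88.6 and 235 CPM with vector, 129, 117 and 294 CPM with FL, and 157, 112 and 234 CPM with dEx1. Replicate 3 was the high library in each of these 9 groups of values. PCNA, the sliding clamp of the fork, was at 106, 100 and 154 CPM with vector, 105, 89.3 and 144 CPM with FL, and 127, 107 and 159 CPM with dEx1, and cyclin B1 (CCNB1), which activates CDK1, at 64.8, 62.2 and 104 CPM with vector, 62.5, 52.7 and 93.4 CPM with FL, and 98.4, 75.4 and 100 CPM with dEx1. The other G1 and S phase cyclins at measurable levels, CCND3, CCNE1 and CCNE2, overlapped between plasmids. CCND3 was at 81.1, 78.4 and 123 CPM with vector, 73.3, 71.6 and 120 CPM with FL, and 73.3, 75.5 and 91.2 CPM with dEx1. CCNE1 was at 8.23, 9.35 and 10.4 CPM with vector, 7.09, 7.27 and 10.5 CPM with FL, and 9.54, 8.77 and 13.5 CPM with dEx1. CCNE2 was at 5.997, 5.49 and 16.2 CPM with vector, 7.12, 6.96 and 12.4 CPM with FL, and 12.2, 9.44 and 19.3 CPM with dEx1.
For the median member, 72.8% of the variance of log2 CPM over the 9 libraries lay between replicate numbers and 15.3% between constructs. For the median of 13139 genes at 1 CPM or more, these shares were 24.2% and 47.5%. The epithelial marker sum moved in the same libraries, at 113, 116 and 234 CPM with vector, 120, 108 and 158 CPM with FL, and 216, 162 and 284 CPM with dEx1, and the mesenchymal sum did likewise (10920, 10670 and 17310 CPM with vector). The epithelial sum was mostly KRT18 and KRT8, with EPCAM, KRT19 and CDH1 at 0.429 CPM or less. The neuroblastoma marker sum was lowest in replicate 3, at 214, 218 and 140 CPM with vector, 148, 187 and 95.6 CPM with FL, and 243, 240.5 and 193 CPM with dEx1, and so was the neuroendocrine sum (32.6, 32.15 and 10.2 CPM with vector). Their part in the result was not tested.

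**Figure D1:**
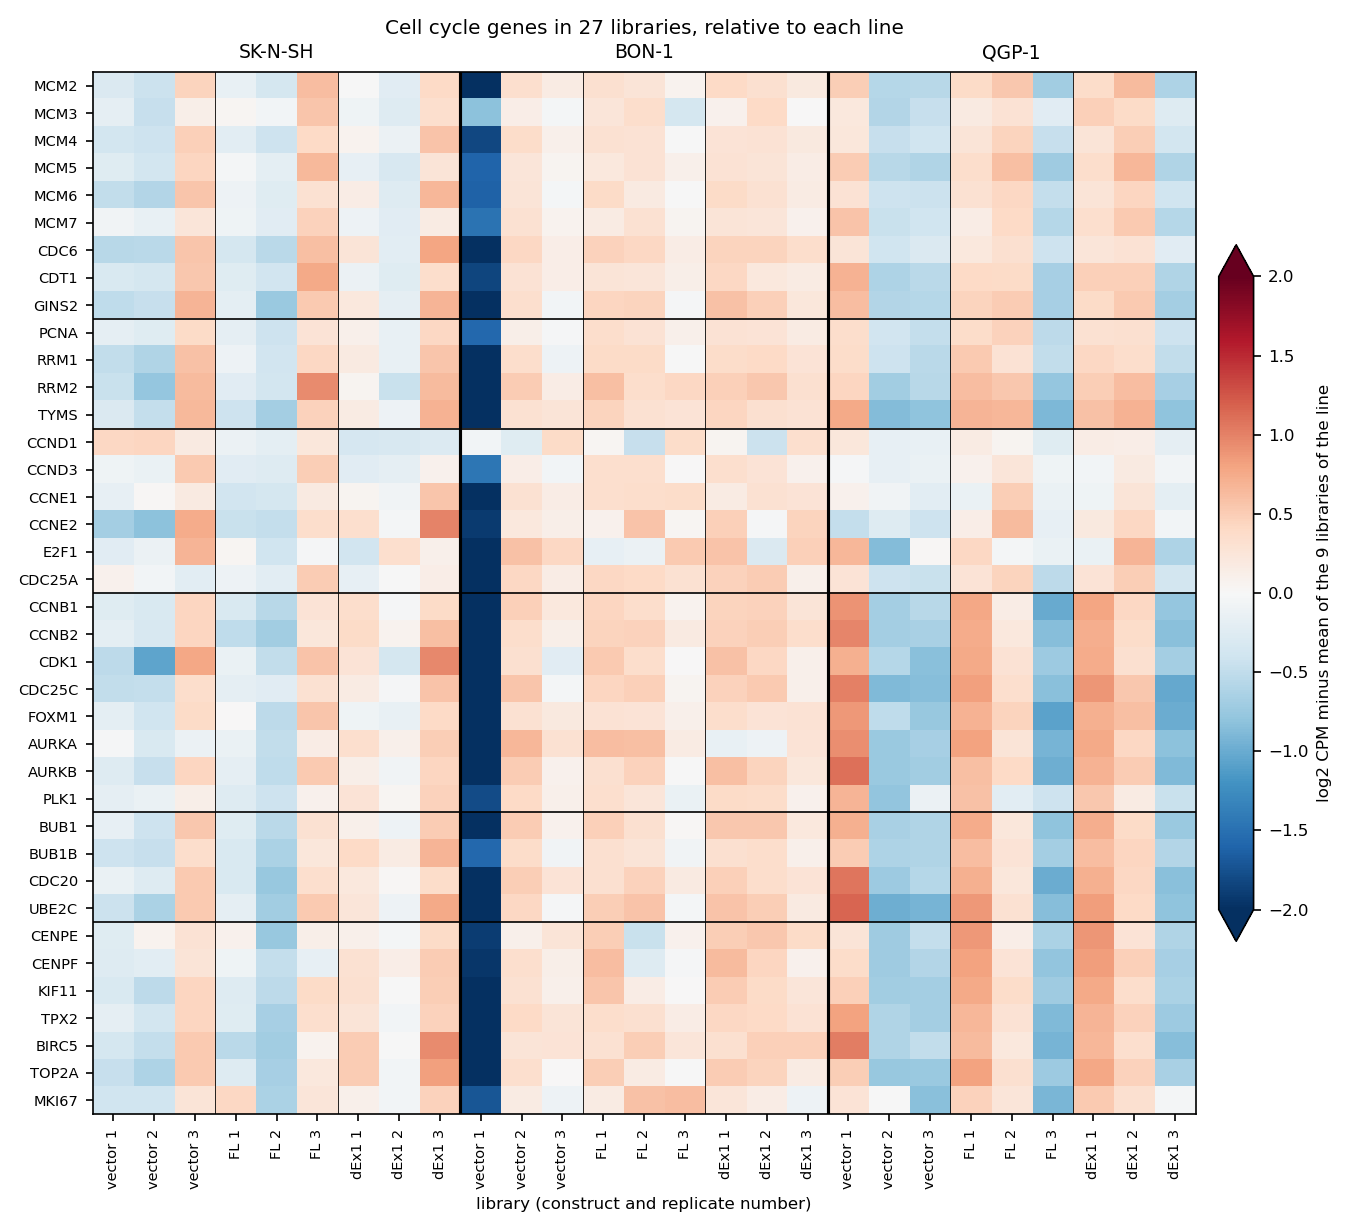
Each cell is the log2 CPM of 1 member (rows, ordered by role, CCND2 left out) in 1 library (columns, 9 per line) minus that gene's mean over the 9 libraries of its line, on a colour scale that saturates at -2 and 2. BON-1 vector replicate 1 is low in nearly every gene, SK-N-SH replicate 3 is high under all 3 plasmids, and QGP-1 replicate 3 and vector replicate 2 are low.

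In BON-1, 36 of 38 members were over 2-fold lower in vector replicate 1 than in the other vector libraries, and no member changed with either construct in edgeR's test. CCND2 fell to the filter on low counts, so 38 members were tested. All 38 were lower in that library, by a median of 5.05-fold against the mean of the log2 values of the other 2 vector libraries. Of 13139 genes at 1 CPM or more, 5925 were lower in that library and 1181 over 2-fold lower. The median over all genes at 1 CPM or more was a log2 difference of 0.04.

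The fold by which genes were lower in that library ranged widely. RRM2 was at 54.8 CPM against 795 and 626 CPM, which is 12.9-fold lower. CDC20, which activates the anaphase-promoting complex, was at 18.6 CPM against 185 and 160 CPM, or 9.24-fold lower. MCM5 was at 29.7 CPM against 107 and 93.9 CPM, or 3.37-fold lower, and MCM3 was 1.83-fold lower. Cyclin D1 stood apart from the rest: CCND1 was at 663 CPM against 585 and 899 CPM, 1.09-fold lower, and lay between the other libraries.
Other genes of the pathway were low too, among them 12 of 17 E2F, RB and MuvB regulators and 10 of 13 CDKs and CDK inhibitors. MYBL2, which codes for B-MYB, was 9.05-fold lower and E2F8 7.73-fold lower. The log2 difference was 0.73 for RBL2, which codes for the pocket protein p130 of resting cells. It was -0.76 and -0.66 for the other pocket protein genes, RB1 and RBL1. Among CDK inhibitors it was 0.16 for CDKN1B, -0.19 for CDKN1C, -0.27 for CDKN2D and -0.79 for CDKN2C. For CDK4 it was -0.00.
The neuroendocrine marker sum was 36330 CPM in this library against 20120 and 13710 CPM in the other vector libraries, and the epithelial sum 7149 against 12310 and 15490 CPM. Their part in the result was not tested.

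**Figure D2:**
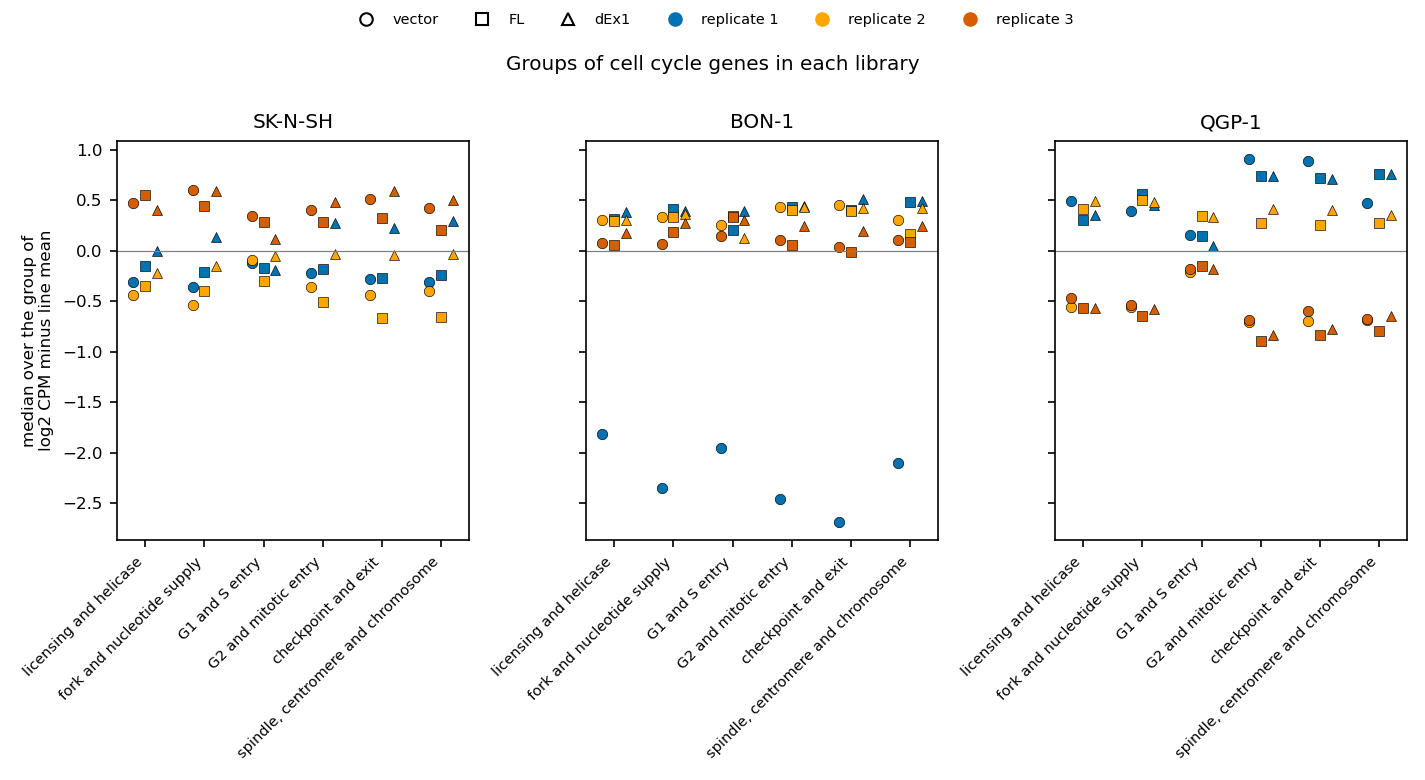
Each point is 1 library: the median, over the genes of a role, of log2 CPM minus the line mean, with symbols for the plasmid and colours for the replicate number. BON-1 vector replicate 1 lies between -2.69 and -1.82 in the 6 roles, while the other BON-1 libraries stay near or above 0.

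In BON-1 with all 9 libraries, the fold changes were nearly all positive and their intervals wide. For FL against vector, 0 of 38 members were called (0.00671% of 14903 genes), 37 were positive, and the median log2 fold change was 0.46. For dEx1 against vector, 0 were called (0.0134%), 36 were positive, and the median was 0.55. No member had an unadjusted p under 0.05 in either comparison, and DESeq2 called 0 in both. The 95% intervals reached a median of 1.11 to each side on the log2 scale. The medians over all genes were -0.02 in both comparisons. Next to MKI67, the smallest p for FL belonged to PCNA (log2 0.56, SE 0.36, adjusted p = 0.928), and CCND1 was the one member below 0 (-0.03, SE 0.27).

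Without vector replicate 1, the shift was smaller and the intervals narrowed. The median over the 38 members was 0.03 for FL and 0.08 for dEx1, 21 and 33 members were positive, beside all-gene medians of -0.01 and -0.00, and the intervals reached a median of 0.37 to each side. No member was called then either (0.0197% and 0.0131% of 15219 genes), and 0 of 38 intervals reached above a doubling (log2 of 1), while 1 interval for FL, that of E2F1 (-1.09 to 0.28), reached below -1. Only 2 vector libraries remained for these values.
The same held by replicate number. Against the vector library of the same number, the median log2 difference over the members was 2.57, -0.04 and -0.01 for FL and 2.52, 0.01 and 0.12 for dEx1 in replicates 1, 2 and 3.

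Over 38 members in BON-1, the highest library was a median of 1.316 times the lowest with FL and 1.182 times with dEx1. With vector this median was 5.382. Some members varied more, among them CCND1, at 499 to 892 CPM with FL. RRM2 was at 849, 718 and 749 CPM with FL and 781, 818 and 698 CPM with dEx1. MCM2 was at 38.4, 204 and 180 CPM with vector, 203, 194 and 170 CPM with FL, and 213, 203 and 185 CPM with dEx1. MCM5 was at 104, 111 and 96.5 CPM with FL and 111, 108 and 99.9 CPM with dEx1. Vector replicate 1 was the one low library for these 3 genes. CCNB1 was at 24.0, 215 and 179 CPM with vector, 209, 197 and 162 CPM with FL, and 210, 212 and 186 CPM with dEx1. CDK1 was at 20.1, 105 and 72.2 CPM with vector, 121, 108 and 85.3 CPM with FL, and 127, 113 and 90.4 CPM with dEx1, and TOP2A at 50.1, 270 and 216 CPM with vector, 303, 241 and 215 CPM with FL, and 305, 292 and 241 CPM with dEx1. The same library was lowest for all 3 mitotic genes. CCND1 was at 710, 499 and 892 CPM with FL and 717, 514 and 868 CPM with dEx1, and replicate 2 was its lowest library under each plasmid. CCND3 was at 74.4, 74.2 and 59.5 CPM with FL and 74.2, 71.7 and 62.5 CPM with dEx1 (log2 0.53, SE 0.34, adjusted p = 0.916 for dEx1 against vector). CCNE2 was at 4.10, 17.8 and 16.8 CPM with vector, 16.3, 23.0 and 15.8 CPM with FL, and 21.4, 15.2 and 21.0 CPM with dEx1.

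The members that came nearest to a difference in BON-1 were MKI67 and AURKA. MKI67 was at 118, 435 and 360 CPM with vector, 436, 581 and 595 CPM with FL, and 457, 428 and 359 CPM with dEx1. All 3 FL libraries were above all 3 vector libraries. The log2 difference of MKI67 for FL against vector was 0.81 (SE 0.40, adjusted p = 0.928), and 0.42 (SE 0.17, unadjusted p = 0.0438, adjusted p = 1) without vector replicate 1. AURKA was at 22.6, 187 and 146 CPM with vector, 180, 179 and 132 CPM with FL, and 106, 109 and 142 CPM with dEx1. Without vector replicate 1, AURKA was lower with dEx1 by a log2 difference of -0.50 against vector (unadjusted p = 0.0357) and of -0.45 against FL (unadjusted p = 0.0341), with an adjusted p of 1 in both.
Groups that did not overlap were found for 2 members above vector with FL (CCNE1 and MKI67) and 3 with dEx1 (PCNA, CENPE and BIRC5), where 4.96% and 5.07% of all genes were higher in that way. No member lay below without overlap in either (3.66% and 3.28% of genes did). PCNA was at 65.9, 212 and 193 CPM with vector, 249, 237 and 210 CPM with FL, and 238, 235 and 218 CPM with dEx1. For dEx1 against FL, 0 of 38 members were called (0% of genes), with a median of 0.07, and without vector replicate 1 again 0 (0.00657%), with a median of 0.07 and 32 of 38 positive. The smallest p in each direction belonged to CENPE (0.38, SE 0.47) and MKI67 (-0.37, SE 0.40), with no adjusted p under 0.05. In this comparison CCNE1 lay below without overlap, as 3.03% of genes did, while none lay above (2.59% of genes).

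**Figure D3:**
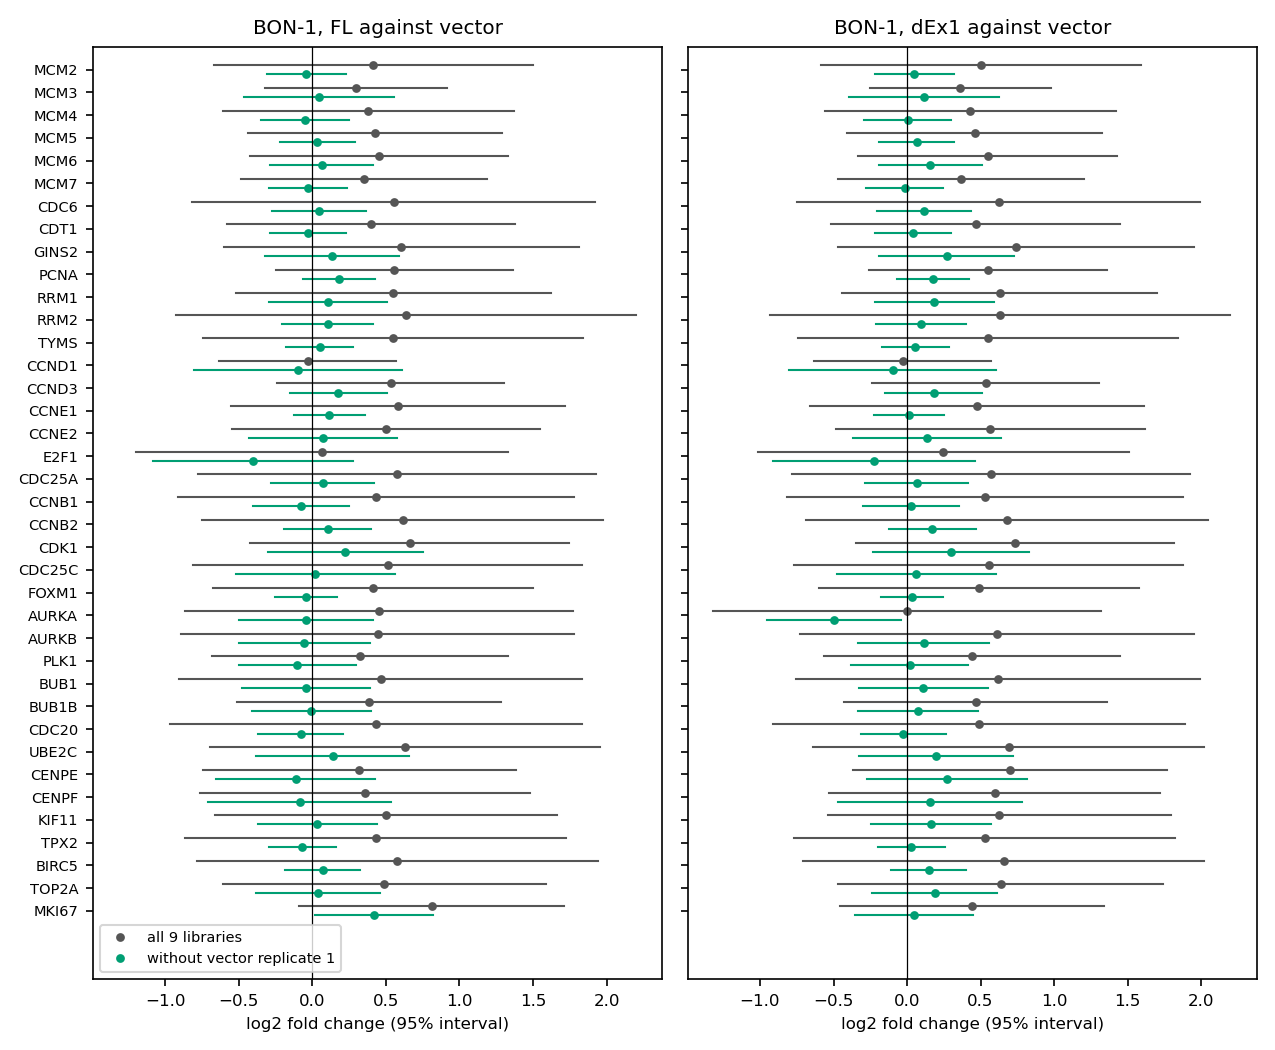
Points are the fitted log2 fold changes of 38 members in BON-1 and lines their 95% intervals, for FL (left) and dEx1 (right) against vector, with all 9 libraries (grey) and without vector replicate 1 (green). The grey points centre on 0.46 and 0.55, the green ones on 0.03 and 0.08.

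In QGP-1 no member was called with either construct in edgeR's test, and the cell cycle genes fell into high and low libraries that cut across the constructs. MCM2 was at 197, 94.2 and 95.5 CPM with vector, 183, 204 and 86.8 CPM with FL, and 182, 218 and 91.5 CPM with dEx1. CCNB1 was at 329, 111 and 120 CPM with vector, 303, 195 and 87.8 CPM with FL, and 304, 235 and 103 CPM with dEx1. Replicate 1 was high and replicate 3 low under each plasmid, whereas replicate 2 was low with vector and high with both constructs. The median log2 difference from the vector library of the same number was accordingly -0.07, 0.88 and -0.11 for FL and -0.09, 1.04 and -0.04 for dEx1. All 38 members were positive in replicate 2, and 16 and 9 of 38 were positive in replicates 1 and 3 with FL.
The same libraries were high and low for the other members of both phases. MCM5 was at 99.2, 47.1 and 45.7 CPM with vector, 88.2, 105 and 42.2 CPM with FL, and 89.0, 110 and 45.8 CPM with dEx1. RRM2 was at 454, 209 and 232 CPM with vector, 519, 493 and 198 CPM with FL, and 474, 517 and 214 CPM with dEx1, and PCNA at 259, 156 and 146 CPM with vector, 263, 281 and 142 CPM with FL, and 253, 254 and 153 CPM with dEx1. All 3 had 2 levels of library, with vector replicate 2 among the low ones. CDK1 was at 65.4, 26.9 and 22.5 CPM with vector, 67.3, 48.8 and 24.1 CPM with FL, and 67.0, 49.9 and 24.9 CPM with dEx1. TOP2A was at 642, 271 and 273 CPM with vector, 801, 569 and 277 CPM with FL, and 785, 632 and 292 CPM with dEx1. MKI67 was less regular, with 478, 397 and 222 CPM with vector, 545, 467 and 211 CPM with FL, and 568, 496 and 385 CPM with dEx1, and its vector replicate 2 was not among the lowest. CCND1 was at 242, 224 and 183 CPM with FL and 241, 238 and 192 CPM with dEx1, against 252, 194 and 196 CPM with vector, so its groups overlapped. CCND3 was at 64.6, 71.7 and 56.9 CPM with FL and 58.6, 68.9 and 58.2 CPM with dEx1 (log2 0.20, SE 0.13, adjusted p = 0.999 for FL against vector).

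Licensing and mitotic genes did not rank these libraries in the same order. The licensing and helicase genes were 0.31 above their line mean (median log2) in FL replicate 1 and 0.42 in FL replicate 2, and 0.36 and 0.49 in the dEx1 libraries. The genes of G2 and mitotic entry were 0.74 and 0.27 above it in the FL libraries, and 0.74 and 0.41 in the dEx1 libraries. The 4 fork and nucleotide genes did not share the licensing order throughout. They were 0.57 and 0.50 above their line mean in the FL libraries, and 0.45 and 0.48 in the dEx1 libraries. TYMS, which makes thymidylate, was at 71.1 and 70.4 CPM in FL replicates 1 and 2, while CDC20 was at 369 and 267 CPM and UBE2C, the ubiquitin-conjugating enzyme of mitotic exit, at 145 and 98.3 CPM. Replicate 1 was thus the highest in mitotic genes under each plasmid, and in licensing genes it lay below replicate 2 with both constructs. The share of ribosomal protein counts was 6.001%, 4.533% and 4.561% in the vector libraries and 5.165%, 4.848% and 4.55% with FL, and its part in the result was not tested.

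Over the 3 libraries per group, QGP-1 gave 0 of 39 members called for FL (0.0275% of 14522 genes) and 0 of 39 for dEx1 (0.0207%) against vector. DESeq2 also called 0 in both, while limma's voom with quality weights called 13 and 23 members (13.4% and 16.0% of all genes). The median log2 fold change was 0.22 with FL and 0.26 with dEx1, with 36 and 38 of 39 members positive, beside all-gene medians of 0.01 and 0.00. Without vector replicate 1 the medians were 0.75 and 0.79, without vector replicate 2 they were 0.10 and 0.12, and without vector replicate 3 they were 0.06 and 0.10. The median for FL was -0.01 without FL replicate 1 and 0.52 without FL replicate 3. The median for dEx1 was 0.11, 0.14 and 0.57 without dEx1 replicates 1, 2 and 3. No member was called in any of these fits. For dEx1 against FL, 0 of 39 were called (0.0138%) and the median was 0.06 (0.37 without FL replicate 1 and -0.24 without FL replicate 3), with MKI67 at 0.25 (SE 0.39) and CCNE1 at -0.09 (SE 0.22). MCM3 came after CCNE2 for dEx1 against vector (0.49, SE 0.27, adjusted p = 1), and BIRC5 was at -0.06 (SE 0.58) for FL.

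The 1 member with an unadjusted p under 0.05 in QGP-1 was the S phase cyclin CCNE2. It was at 8.66, 10.1 and 9.04 CPM with vector, 13.2, 18.7 and 10.7 CPM with FL, and 13.9, 16.2 and 11.7 CPM with dEx1. All 6 construct libraries were above the 3 vector libraries, and CCNE2 was the 1 member of 39 without overlap in each comparison, where 6.20% and 4.83% of all genes were higher in that way. None lay below (4.83% and 4.09% of genes), and for dEx1 against FL none lay above or below (1.93% and 2.54%). The log2 difference of CCNE2 was 0.63 (SE 0.22, unadjusted p = 0.0218, adjusted p = 0.915) with FL and 0.60 (SE 0.22, unadjusted p = 0.0262, adjusted p = 1) with dEx1. In the hg19 annotation 37% of the exonic bases of CCNE2 overlap exons of INTS8 on the other strand, and 39.9% of those of TYMS overlap ENOSF1. Whether counting used the strand is not stated, so reads of such pairs may not be separated.

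**Figure D4:**
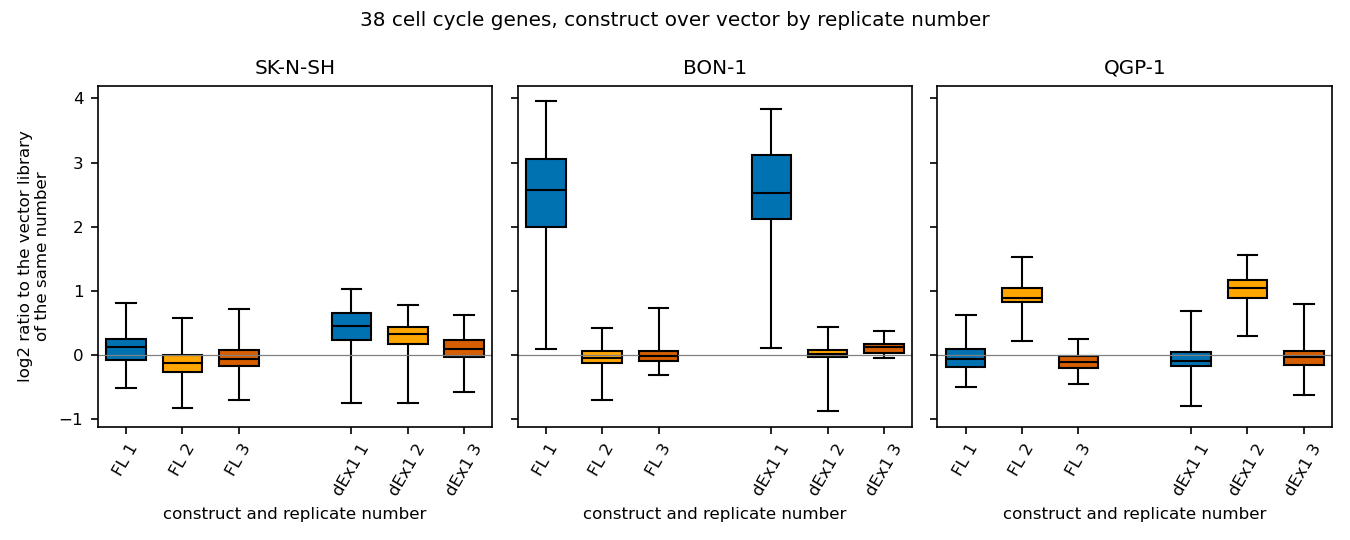
Each box shows 38 members: the log2 ratio of CPM in a construct library to that in the vector library of the same line and replicate number, with the median, the quartiles and whiskers to the lowest and highest gene. The boxes furthest from 0 are replicate 1 in BON-1, with medians of 2.57 and 2.52, and replicate 2 in QGP-1, with 0.88 and 1.04. In SK-N-SH the dEx1 medians are smaller than these and positive in each replicate number.

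Among the G1 cyclins, CCND1 set the 3 lines apart. CCND1 averaged 2391 ± 234 CPM in SK-N-SH vector, 716 ± 164 CPM in BON-1 vector and 214 ± 33.0 CPM in QGP-1 vector (SD, n = 3), with no overlap between lines. Per kilobase of transcript these are 564, 169 and 50.5 CPM. The log2 difference of CCND1 was -1.74 (SE 0.21, adjusted p = 3.83e-07) in BON-1 and -3.48 (SE 0.23, adjusted p = 2.64e-11) in QGP-1 against SK-N-SH, and 1.74 (SE 0.21, adjusted p = 5.80e-07) in BON-1 against QGP-1, and each call was kept in all 10 alternatives.

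Cyclin D3 and the E cyclins followed other orders. CCND3 was at 81.1, 78.4 and 123 CPM in SK-N-SH vector, 21.8, 64.5 and 56.9 CPM in BON-1 vector and 59.8, 54.1 and 55.3 CPM in QGP-1 vector, and was lower than in SK-N-SH in both pancreatic lines (adjusted p = 0.00392 and 0.0237). CCNE1 was at 8.23, 9.35 and 10.4 CPM in SK-N-SH vector, 5.31, 31.3 and 28.1 CPM in BON-1 vector and 8.36, 7.42 and 6.73 CPM in QGP-1 vector. With a construct, CCNE1 was at 28.5 to 32.9 CPM in the 6 BON-1 libraries and at 6.83 to 10.98 CPM in the 6 QGP-1 libraries. It was higher in BON-1 vector than in SK-N-SH (adjusted p = 0.00857) and QGP-1 (adjusted p = 0.00199), and by a log2 difference of 1.67 and 1.95 without BON-1 vector replicate 1. CCND2 was at 0.303 CPM or less in SK-N-SH, 0 in all 9 BON-1 libraries and 0.481 CPM or less in QGP-1, and no fold is given.

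**Figure D5:**
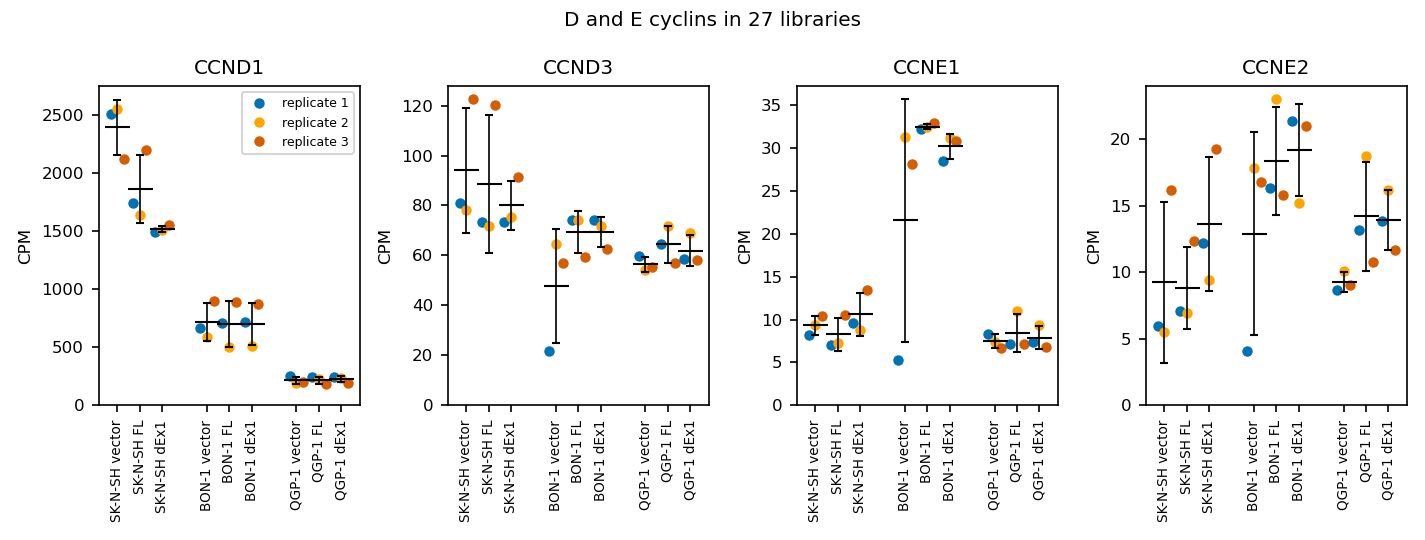
CPM (linear axes from 0) of 4 G1 cyclins in the 27 libraries, with points coloured by replicate number and black marks for the mean ± SD of each group of 3. CCND1 steps down from SK-N-SH to BON-1 to QGP-1, CCNE1 is high in BON-1 apart from vector replicate 1, and CCNE2 is above vector in all QGP-1 construct libraries.

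The calls between vector libraries of the lines covered both phases. In BON-1 against SK-N-SH, 9 members were higher and 2 lower (60.6% of 16883 genes were called, 30.9% higher and 29.7% lower). In QGP-1 against SK-N-SH, 7 were higher and 4 lower (60.6%, as 30.0% and 30.6%), and in BON-1 against QGP-1, 4 were higher and 1 lower (51.4%, as 27.7% and 23.7%). CENPE, a kinetochore motor, was higher in BON-1 than in SK-N-SH (log2 2.03, SE 0.46, adjusted p = 0.000714) and QGP-1 (1.56, SE 0.46, adjusted p = 0.00684). BUB1B, a checkpoint kinase, was higher than in SK-N-SH in BON-1 (1.57, SE 0.43, adjusted p = 0.00322) and QGP-1 (1.75, SE 0.43, adjusted p = 0.00130).
MKI67 was higher than in SK-N-SH in both as well, by 1.05 (adjusted p = 0.0258) and 1.32 (adjusted p = 0.00676). BON-1 was also above SK-N-SH in CDT1 (1.46), RRM2 (1.76), AURKA (1.46) and CDC25A (1.18), the phosphatase that activates CDK2, and above QGP-1 in MCM4 (1.28), a helicase subunit. QGP-1 was above SK-N-SH in MCM6 (1.29), CCNB2 (1.72), TOP2A (1.42), AURKB (1.66) and PLK1 (1.03), the polo-like kinase of mitosis, and below it in TYMS (-1.69, adjusted p = 0.0184). QGP-1 was also below SK-N-SH in MCM4 (-0.94), and BON-1 above it in GINS2 (1.34), part of the helicase. BIRC5 was lower in BON-1 than in QGP-1 (-1.48, adjusted p = 0.0385), a call lost without BON-1 vector replicate 1. Besides CCND1, the calls kept in all 10 alternatives were CCND3, BUB1B and CENPE for BON-1 against SK-N-SH, MCM6, BUB1B and MKI67 for QGP-1 against SK-N-SH, and CCNE1 and CENPE for BON-1 against QGP-1. Each of the others was lost without at least 1 library. In BON-1 against SK-N-SH all 7 were lost without BON-1 vector replicate 2, and all but CDT1 without BON-1 vector replicate 3. GINS2, RRM2, MKI67, CDC25A and AURKA were also lost without SK-N-SH vector replicate 1 or 2, and the last 2 without replicate 3. In QGP-1 against SK-N-SH, CCNB2, AURKB, PLK1, TOP2A and CCND3 were lost without QGP-1 vector replicate 1, TYMS, MCM4 and CCND3 without its replicate 2 or 3, and these 3 also without SK-N-SH vector replicate 3, and CCNB2, AURKB, PLK1 and TOP2A without SK-N-SH vector replicate 2. The last 3 of these and MCM4 were lost without SK-N-SH vector replicate 1. In BON-1 against QGP-1, MCM4 was lost without replicate 2 of either vector group and BIRC5 also without QGP-1 vector replicate 1.
Without BON-1 vector replicate 1, 21 members were higher and 2 lower in BON-1 than in SK-N-SH (57.7% of 17256 genes), and the median over members was 1.08. The log2 differences named above were then 2.46 for CENPE, 2.30 for RRM2, 1.95 for AURKA, 1.88 for CDT1, 1.68 for CDC25A, 1.44 for MKI67, 1.96 for BUB1B and 1.81 for GINS2. In BON-1 against QGP-1, 6 were then higher and none lower (48.7%), with CENPE at 1.95 and MCM4 at 1.66. Each line was grown in its own medium, which cannot be told apart from the line.

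The effects of the constructs were not shown to differ between lines for any member in edgeR's test without a replicate block. The test of the difference in effect gave 0 of 39 members in each of the 6 contrasts. For FL the background was 0.284% of 16883 genes for BON-1 against SK-N-SH, 0.160% for QGP-1 against SK-N-SH and 0.0118% for BON-1 against QGP-1. For dEx1 it was 0.332%, 0.521% and 0%. DESeq2 also gave 0 members in all 6. With a replicate block, edgeR called CCND1 only, for the effect of dEx1 against that in SK-N-SH. It was called in QGP-1 (0.72, adjusted p = 0.0199, with 3.77% of all genes called) and in BON-1 (0.62, adjusted p = 0.0464, with 2.86%). Without the block CCND1 came nearest, with dEx1 in QGP-1 against SK-N-SH (difference in log2 fold change 0.72, SE 0.29, unadjusted p = 0.0228, adjusted p = 0.366) and in BON-1 against SK-N-SH (0.62, SE 0.29, unadjusted p = 0.0452, adjusted p = 0.451). Without BON-1 vector replicate 1 the latter was 0.56 (adjusted p = 0.685). For FL in BON-1 against SK-N-SH, CCND3 was at 0.63 (SE 0.38) and CCNE1 at 0.77 (SE 0.53), but at 0.26 and 0.28 without that library, and MKI67 in BON-1 against QGP-1 was at 0.66 (SE 0.55) and 0.27. For dEx1 in BON-1 against SK-N-SH, CCND3 was at 0.77 (SE 0.38, adjusted p = 0.477) and 0.41. Without that library no member was called in the 4 contrasts with BON-1 (0.232% and 0.0232% of 17256 genes for FL against SK-N-SH and QGP-1, 0.243% and 0% for dEx1). The median over members was then 0.05, -0.19, -0.15 and -0.20 in these contrasts, against 0.49, 0.27, 0.32 and 0.27 with it. The 95% intervals reached a median of 1.37 to each side, so a doubling that differs between lines lies within the interval for most members.

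The wider pathway was covered by 4 lists, of 24 other replication genes, 30 other mitotic genes, 17 regulators and 13 CDKs and inhibitors. Of these, 2 genes were called for dEx1 against vector in SK-N-SH and 6 for dEx1 against FL, where 4.47% and 22.0% of all genes were called. None was called in BON-1 or QGP-1, where at most 0.0275% of all genes were. Among 17 E2F, RB and MuvB regulators, RBL1, the pocket protein p107 that binds repressor E2Fs, was at 357, 340 and 268 CPM with vector, 304, 264 and 312 CPM with FL, and 142, 161 and 97.1 CPM with dEx1. Its log2 fold change was -1.27 (SE 0.19, adjusted p = 0.0122) against vector and -1.13 (SE 0.19, adjusted p = 0.00423) against FL, and the dEx1 libraries lay below all others. The call against vector was lost without vector replicate 1 or dEx1 replicate 1. E2F7, a repressor E2F, was lower with dEx1 than with vector (-1.06, SE 0.22, adjusted p = 0.0360), a call lost in 9 of 17 alternatives, among them the removal of any 1 SK-N-SH library other than vector replicate 3 and FL replicate 3. E2F4, the main E2F of resting cells, was lower with dEx1 than with FL (-0.45, SE 0.08, adjusted p = 0.00509), with 198, 196 and 196 CPM with FL and 144, 152 and 134 CPM with dEx1. Its vector libraries, at 174.2, 181.3 and 162.5 CPM, lay between the FL and the dEx1 libraries.
Among 13 CDKs and CDK inhibitors, dEx1 against FL gave CDK4 lower (-0.41, SE 0.08, adjusted p = 0.00904) and the inhibitor CDKN2C, which codes for p18, higher (1.37, SE 0.31, adjusted p = 0.0153), the latter lost without FL replicate 1 or 2 or dEx1 replicate 3. CDK4 was at 192, 204 and 196 CPM with vector, 256, 232 and 242 CPM with FL, and 184, 169 and 193 CPM with dEx1. The FL libraries were the high ones for CDK4, and those with dEx1 overlapped vector. For RBL1, E2F4 and CDK4 the call against FL was kept in all 17 alternatives. Among 30 other mitotic genes 2 were called for dEx1 against FL, ASPM (0.31, adjusted p = 0.0464) and NEK2 (0.58, adjusted p = 0.0425), both lost in the fit of all 27 libraries. ASPM was also lost without any 1 SK-N-SH library other than vector replicate 3, and NEK2 without vector replicate 1, FL replicate 1 or 2, or dEx1 replicate 1 or 3. Of the same lists, 0 of 24 other replication genes were called. These lists were described by counts, and 22.0% of all genes were called in the same comparison.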

How the data were processed

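Per the labels, RNA was harvested on day 3 after transfection and libraries were made with an Illumina TruSeq mRNA kit. Per the submitters' processing notes, Trimmomatic, HISAT2 and StringTie were used with hg19; versions, annotation, counting strand and the step to counts are not given in the sources used here. The authors deposited whole-number estimated counts per gene, 1 column per library; 4 repeated symbols held identical values. The members and lists were chosen with earlier results of these data known.

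Each line's 9 libraries were fitted together in edgeR 4.0.16 (R 4.3.3) with filterByExpr, TMM scaling and the quasi-likelihood F test, Benjamini-Hochberg adjustment over all genes tested and a threshold of 0.05; contrasts between lines used all 27 libraries. Adjusted p-values come from edgeR except where a different tool stands beside them. Levels are CPM on the TMM-scaled library size, and log2 CPM for variances and library differences used a prior count of 2. Members were named by rule: every called member, or the 10 with the smallest p, with 13 fixed genes to be shown in all libraries; some named members and all non-overlapping ones were chosen after their values were seen. Alternatives were DESeq2 1.42.0, its size factors, limma 3.58.1 voom with quality weights, other filters, other library sets, a replicate block and leaving out libraries. In simulated data, 46%, 18% and 22% of genes changed 2-fold were called for FL against vector in SK-N-SH (14674 genes), BON-1 (14903) and QGP-1 (14522). The changed genes were drawn from all genes tested, not from the members, and libraries were simulated as independent. Libraries with the same number deviated together (residual r of at least 0.114 in every pair) in the 3 BON-1 comparisons and, at 0.228 or more, in dEx1 against FL in QGP-1.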

Additional observations from a re-analysis of the deposited data

How the results depend on the processing

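In SK-N-SH the number of members called moved with the setting. In the fit of all 27 libraries 0 were called for dEx1 against vector and 0 for dEx1 against FL. With no filter on low counts 0 were called for dEx1 against FL, and with DESeq2 3. With limma's voom and quality weights, 1, 17 and 13 members were called for FL against vector, dEx1 against vector and dEx1 against FL (36.2% and 39.5% of all genes for the last 2). The same weights gave 13 and 23 members for FL and dEx1 against vector in QGP-1 (13.4% and 16.0% of all genes), where the median for dEx1 became 0.97 and vector replicate 1 had a weight of 0.176. With the replicate block, 1, 9 and 18 members were called in the SK-N-SH comparisons (5.30%, 15.1% and 32.8% of all genes). The block gave 1 member each, CCND1, for the difference in the effect of dEx1 in BON-1 and in QGP-1 against SK-N-SH (0.62 and 0.72, adjusted p = 0.0464 and 0.0199; 2.86% and 3.77% of all genes), and it changed no other count by over 1.5 times. Over all genes tested, same-numbered libraries did not pass the rule for pairs (each correlation of deviations above 0.1) in SK-N-SH, where correlations were 0.046 to 0.458. Nor did they for QGP-1 against vector, where the second pair had -0.145 and -0.172. The members alone were not put to this rule. In SK-N-SH 72.8% of the variance of the median member lay between replicate numbers, and the main fits, without a block, leave that variance in the error. DESeq2 called 17 members for QGP-1 against SK-N-SH vector (61.4% of all genes). Leaving out 1 library gave 0 to 1, 0 to 2 and 0 to 3 members in the 3 SK-N-SH comparisons, 0 in each BON-1 and QGP-1 comparison and each difference in effect, and 4 to 23, 7 to 15 and 4 to 6 members for BON-1 against SK-N-SH, QGP-1 against SK-N-SH and BON-1 against QGP-1 vector. The cause was not tested. Over all settings 39 counts of members moved by over 1.5 times. Without 1 library the median over members ran from 0.03 to 0.89 (FL), 0.08 to 0.92 (dEx1) and -0.02 to 0.12 (dEx1 against FL) in BON-1. With 3 libraries per group, simulated 2-fold changes were called in 46% (SK-N-SH), 18% (BON-1) and 22% (QGP-1) of genes for FL against vector. Simulated 1.5-fold changes were called in 12%, 0% and 4%. The changed genes were drawn from all genes tested and the libraries simulated as independent, so these rates were not measured for the members.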
